A study of Caenorhabditis elegans with 2 samples.

Results

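The ztf-11 gene and the regions listed within 100 kb of it were examined in ChIP-seq peak lists for its own product, the zinc-finger transcription factor ZTF-11. The members were the listed regions whose summit lay within 100 kb of the gene. They numbered 92 of 30000 in the list made from the pooled reads, 89 of 30000 in the replicate 1 list and 103 of 30000 in the replicate 2 list. The material was whole L1 larvae of Caenorhabditis elegans, pooled male and female, of strain OP236 (unc-119(ed3) III; wgIs236). This line carries a mutation in unc-119 and stably expresses a ZTF-11 protein fused at its C-terminus to GFP and FLAG. There was 1 group of 2 biological replicates and no group of another genotype, stage or treatment, so nothing could be contrasted between conditions. The locus was chosen by its region counts and signals in these same lists, so those values are given here as a description, with no test.

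ZTF-11 is the worm member of the Myt1 family, whose vertebrate members are known as repressors of non-neuronal genes in developing neurons. In C. elegans it is known to act in neurogenesis and to work with the MuvB corepressor complex. In ChIP-seq, chromatin bound by the tagged protein is recovered and sequenced, and stretches with more reads than a control library are listed as regions with a signal value. A strain with an inserted tagged gene usually keeps its own chromosomal copy of that gene. Reads from the insertion and from the chromosomal copy fall on the same coordinates and cannot be told apart in these lists. How much genomic DNA beside ztf-11 the insertion carries, its place and its copy number are not given in the sources used here.

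Each list held 30000 regions, nearly all 350 bp wide, that include background as well as peaks. The signal is the authors' value for each region. Its median over nuclear regions was 16.1 in the pooled list, with 9.89 in replicate 1 and 9.18 in replicate 2, and levels are compared within a list only. A thresholded list held 88 peaks, called consensus peaks here. Read depth was unknown, since the lists hold no read counts. Because each list has a fixed length, a density is a share of that list and not an amount of binding. Coordinates are ce11, counted from 1.

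ztf-11 (WBGene00009939) occupies chromosome I 9904303 to 9910545 on the reverse strand, so its start is at the higher coordinate. It has 2 annotated transcripts, which begin at 9910545 and 9907655. Around it, listed regions lay closer together than in the flanks in each of the 3 lists. The run of adjacent 1 kb bins that best separated a higher from a lower count was 72 kb long in the pooled list, from 9865001 to 9937000. It held 56 regions, or 0.778 per kb, against 36 regions in the 133 kb of flanks, or 0.271 per kb. The ratio was 2.87, and against the mean of chromosome I it was 2.46. The run in each list was sought for a higher count, so a ratio above 1 to its flanks is built in.

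The replicates placed the ends of the run differently. In replicate 1 it ran from 9865001 to 9947000, which is 82 kb with 56 regions, and its density was 2.55 times that of its flanks. In replicate 2 it ran from 9882001 to 9921000, which is 39 kb with 41 regions, and its density was 2.81 times that of its flanks. The replicate 2 run lay wholly inside the other runs, so 39 kb was the stretch common to the 3 lists. It reached 22.3 kb beyond the 3' end of ztf-11 and 10.5 kb upstream of its start.

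**Figure D1:**
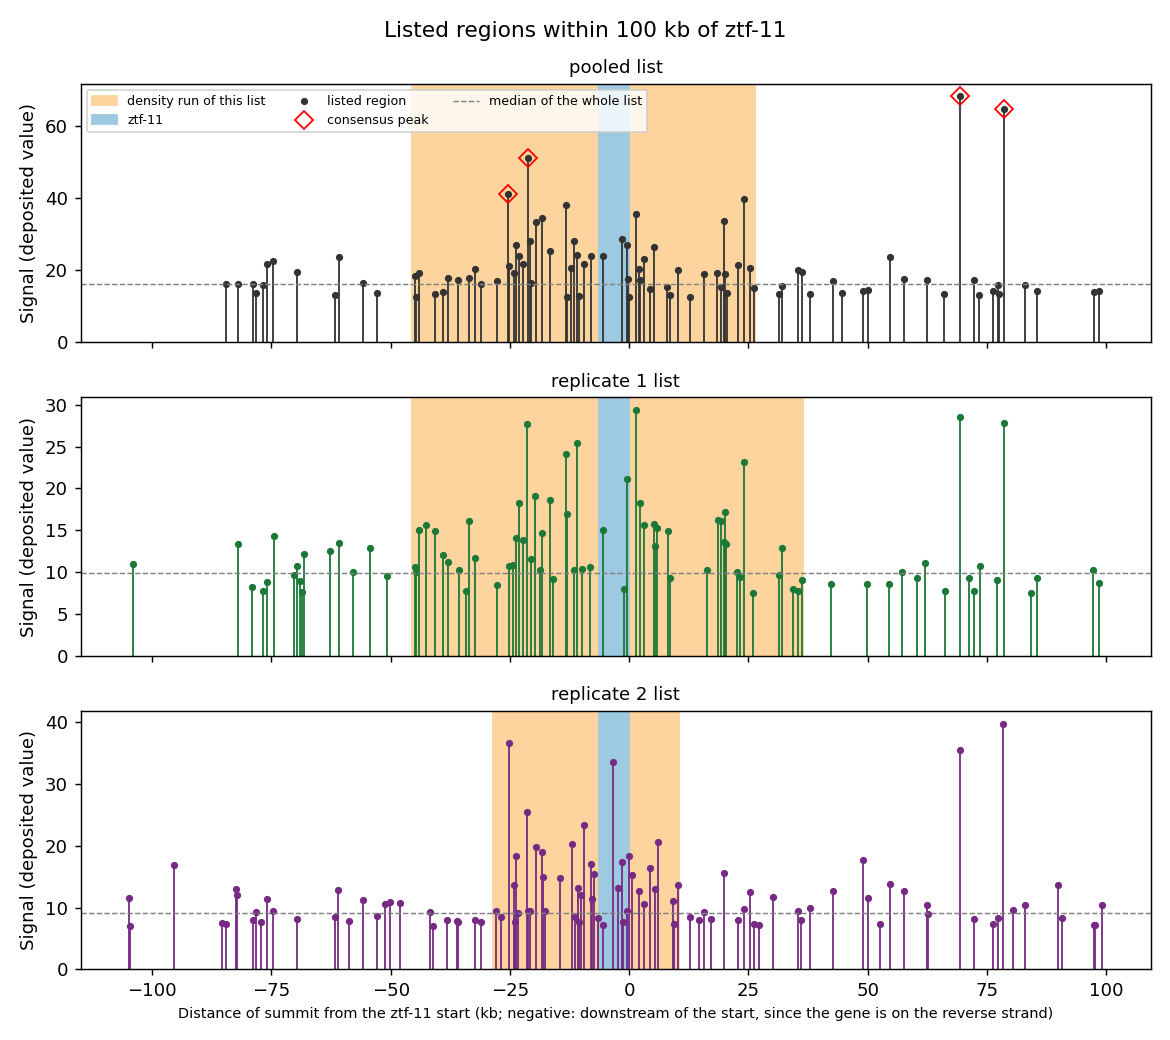
Each stem is a listed region, placed by the distance of its summit from the ztf-11 start in kb (x) and drawn to its deposited signal (y), for the pooled list and each replicate; orange marks the run of higher density found in that list, blue the gene, the dashed line the median signal of the whole list, and red diamonds consensus peaks. Many regions of middling signal crowd the run, while the consensus peaks of highest signal, 68.4 and 64.8, stand alone in the flank upstream of the gene.

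Over the common 39 kb, the pooled list held 35 regions, or 0.897 per kb against 0.271 in the flanks of the 72 kb run. Replicate 1 held 30 there, or 0.769 per kb against 0.286. Replicate 2 held 41, or 1.05 per kb against 0.346. The common stretch is the replicate 2 run and lies inside the runs sought for a higher count in the other lists. A higher density there is thus built in for replicate 2 and not independent of the choice in the others. Relative to the flanks, the density was 3.32 times as high in the pooled list, with 2.69 in replicate 1 and 3.04 in replicate 2. The rest of the 72 kb run was less alike between the replicates. In the 17 kb on its lower-coordinate side, replicate 1 had 0.647 regions per kb and replicate 2 had 0.412, which is 2.26 and 1.19 times the flank values. In the 16 kb on its higher-coordinate side, replicate 1 had 0.625 and replicate 2 had 0.563 regions per kb, or 2.19 and 1.63 times the flanks.

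The signal followed the same division. In the common stretch the median signal was 22.9 in the pooled list against 15.8 in the flanks, with quartiles of 17.4 and 27.5. It was 14.8 in replicate 1 against 9.41 in the flanks, and 13.2 in replicate 2 against 9.72. Relative to the flanks these medians were 1.45, 1.57 and 1.36 times as high. In the 17 kb on the lower side, the median was 11.6 in replicate 1 and 7.81 in replicate 2, which is 1.24 and 0.803 times the flank medians. In the 16 kb on the higher side, it was 13.4 in replicate 1 and 8.51 in replicate 2, or 1.43 and 0.876 times the flank medians. On either side of the common stretch, the median was thus below that of the flanks in replicate 2 and above it in replicate 1.

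**Figure D2:**
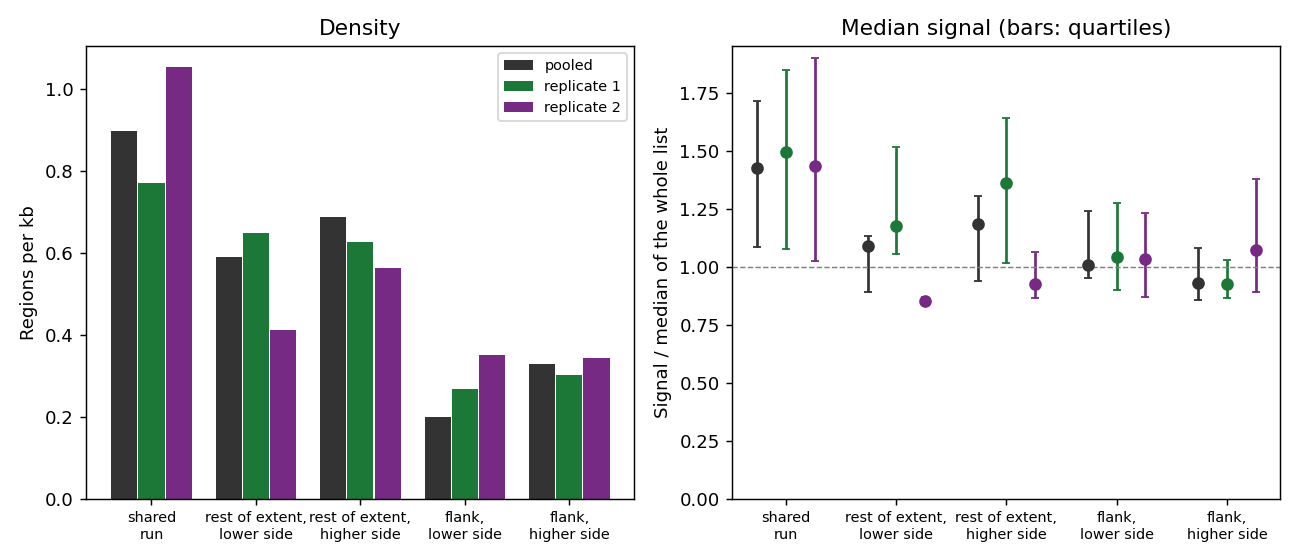
Left, regions per kb, and right, the median signal divided by the median of the whole list (bars span the quartiles), in the common 39 kb run, the rest of the 72 kb pooled run on either side, and the flanks, for the pooled list and each replicate. The common run is the highest in density and in median signal in every list, and replicate 2 drops below a ratio of 1 in signal in the rest of the run. The common run was cut from runs sought for a higher count, so its higher density is in part built in.

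On the lower-coordinate side, counts were compared to either side of 9885208, the summit where the run of highest signal began in the pooled list. The position was chosen as a break in the pooled signal, so the pooled signal step there is built in. The pooled reads are those of both replicates, so the replicate values there are not independent of that choice. In the pooled list the 10 kb from this position toward the gene held 12 regions with a median signal of 26.04, and the 10 kb beyond it held 4 regions with a median of 17.3. Replicate 1 also held 12 regions inside and 4 outside, with medians of 13.95 and 10.02. Replicate 2 likewise held 12 and 4, with medians of 14.3 and 8.22. At the start of the pooled density run, 9865001, the 10 kb inside and outside held 7 and 1 regions in the pooled list, 8 and 2 in replicate 1, and 5 and 4 in replicate 2. A run of higher signal, found from the signals of the regions taken in order of position, began at 9885208 in the pooled list. It began at 9886865 in replicate 1 and at 9885262 in replicate 2. These 3 positions lie within 2 kb of each other, about 17.4 to 19.1 kb beyond the 3' end of ztf-11. The pooled position is not independent of those of the replicates.

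On the side upstream of ztf-11 the 3 lists gave no common end. The run of higher signal ended at 9897239 in the pooled list, before the gene, at 9934532 in replicate 1 and at 9916618 in replicate 2, where it lay 6.07 kb upstream of the start. The pooled run by signal was 12.0 kb long with 13 regions, all of them above the list median. The run was sought for a higher signal, so that share is in part built in. That stretch had 1.08 regions per kb. At the upper edge of the pooled density run, the last regions inside had signals of 15.02, 20.6 and 39.7, and the first outside had 13.2, 15.6 and 20.1. At its lower edge the first inside had 18.4, 12.6 and 19.1, and the first outside, after a gap of 7998 bp, had 13.5, 16.3 and 23.7.

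**Figure D3:**
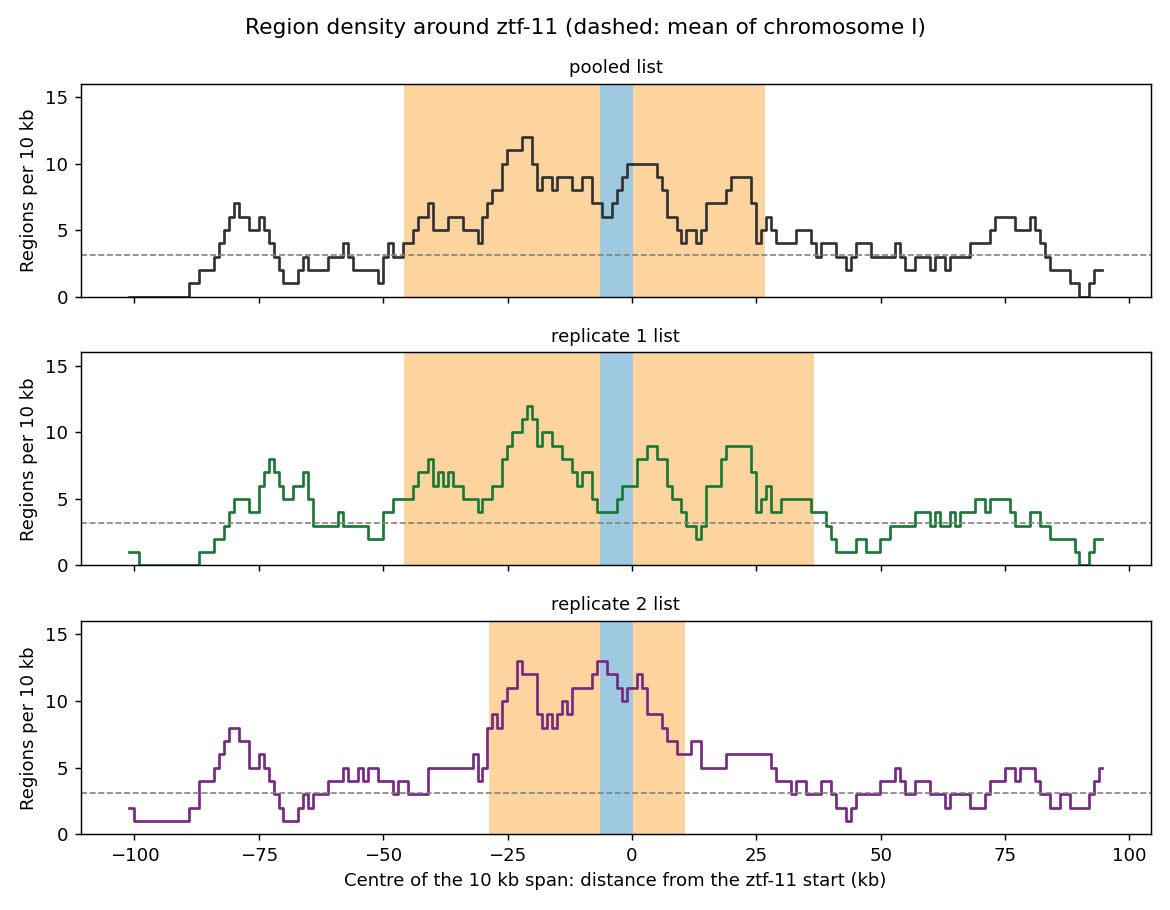
Regions per 10 kb, counted in spans moved by 1 kb, against the distance of the span's centre from the ztf-11 start in kb, for the pooled list and each replicate; orange marks the run of higher density in that list, blue the gene, and the dashed line the mean of chromosome I. The highest spans held 12 regions in the pooled list, with 12 in replicate 1 and 13 in replicate 2, where that height was reached both beyond the gene's 3' end and over the gene; the highest spans of the flanks held 7, 8 and 8.

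The higher density came from more occupied bins and from bins with several regions. In the pooled list 43 of the 72 bins of the run held a summit, or 59.7%, against 36 of 133 in the flanks, or 27.1%, and 27.4% of bins over the nuclear genome. In replicate 1 the shares were 55.6% in the run and 27.1% in the flanks, with 27.2% over the genome, and in replicate 2 they were 59.7% and 33.1%, with 27.5% over the genome. No pooled bin of the flanks held more than 1 summit, while 9 bins of the run held 2 and another 2 held 3. The median gap between neighbouring summits was 1002 bp in the run, against 2626 bp in the flanks and 2151 bp over the genome. Some listed regions overlapped and were still counted singly. Gaps shorter than the region width of 350 bp were 10 of 55 in the run, 1 of 34 in the flanks and 1553 of 29994 over the genome. The flank on the lower side contained 21 empty kb in a row in the pooled list and in replicate 1, whereas the longest empty stretch of the flanks was 9 kb in replicate 2.

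Among windows of 72 kb placed every 1 kb along the nuclear chromosomes, the locus had the highest pooled count. Only its own position reached 56 regions, which is 0.00100% of 99843 windows, and the highest count in a window away from the locus was 52, on chromosome IV. The width and position were fitted to the pooled counts at this locus only, so its first place is in part built in. Neighbouring windows overlap, so the shares of windows given here are not probabilities. In the pooled list the median window held 21 regions and the 99th percentile was 39. In replicate 1 the same 72 kb held 51 regions, a count reached by 0.0651% of windows, and a window on chromosome V held 70. In replicate 2 it held 57, reached by 0.0110% of windows, none of them apart from this locus, and the highest elsewhere was 46. In windows of 20 kb, the highest count within the run was 20 in the pooled list, reached by 0.0160% of all windows, and the highest elsewhere was 23. It was 18 in replicate 1, reached by 0.104% of windows, with 32 elsewhere, and 23 in replicate 2, reached by 0.00499% of windows, with 19 elsewhere. The locus thus stood first in replicate 2 at both widths, first in the pooled list at 72 kb only, and first in replicate 1 at neither.

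Regions of high rank were part of the crowding. Of the 56 pooled regions in the run, 11 were among the 1000 of highest signal, or 19.6%, against 2 of 36 in the flanks, or 5.56%, and 3.33% of the whole list. In replicate 1 these were 10 of 51 in the run and 2 of 38 in the flanks, with 3.34% over the list. In replicate 2 they were 13 of 57 and 4 of 46, with 3.33% over the list. In replicate 2 all 13 lay in the common 39 kb, and in replicate 1 the common stretch held 9 of the 10. Consensus peaks did not set the run apart from its flanks, with 2 of 56 pooled regions in the run and 2 of 36 in the flanks. Both shares were above the 0.293% of the whole pooled list. Of the pooled regions of the run, 76.8% were above the list median, against 44.4% in the flanks. The shares were 86.3% in the run and 42.1% in the flanks in replicate 1, and 66.7% and 58.7% in replicate 2, where they lay closer together.

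At ztf-11 itself the pooled list had 5 summits in the gene body, 4 of them in introns and 1 in a coding exon. Replicate 1 had 3 in the gene body and replicate 2 had 7. The region at 9908768 to 9909117, in an intron, had a pooled signal of 28.6 and 17.4 in replicate 2, with no replicate 1 summit within 200 bp. The region at 9909819 to 9910168, in an intron and 551 bp downstream of the start, had 26.9 in the pooled list, with 21.1 in replicate 1 and 9.40 in replicate 2. The coding-exon region at 9910295 to 9910644 had a low pooled signal of 12.6 and no replicate 1 match, yet 18.3 in replicate 2. The replicates thus differed in which parts of the gene they listed.

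The replicate 2 list had its second highest region of the run, with a signal of 33.6, in an intron at 9906967 to 9907316. This region ranked 23 among all nuclear regions of that list and lay 513 bp downstream of the start of the shorter transcript. Neither the pooled list nor replicate 1 had a summit within 200 bp of it. Upstream of the gene, the region at 9911815 to 9912164, with its summit 1445 bp before the start, had 35.6 in the pooled list and 29.4 in replicate 1, where it ranked 34. Replicate 2 had no summit within 200 bp of it. The highest region at or near the gene was therefore a different one in each replicate.

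In the intergenic stretch further upstream, pooled signals were 20.4 at 2117 bp, 17.3 at 2362 bp, 22.9 at 3023 bp, 14.6 at 4339 bp and 26.5 at 5244 bp before the start. Only the regions at 3023 bp and 5244 bp had a match in both replicates. Their values were 15.7 and 15.8 in replicate 1, and 10.5 and 13.0 in replicate 2. Within 500 bp upstream of the outer start, replicate 2 listed 1 region, at 9910870 to 9911219 with a signal of 15.3, and the pooled list and replicate 1 had none there.

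The 2 highest pooled regions of the run lay at neighbouring genes beyond the 3' end of ztf-11. The coding-exon region of oct-1, an organic cation transporter gene, at 9889059 to 9889408 had 51.1 in the pooled list, with 27.8 in replicate 1 and 25.4 in replicate 2. The region at 9885033 to 9885382, intergenic and 981 bp upstream of nas-5, a gene of the astacin protease family, had 41.03 in the pooled list and 36.6 in replicate 2. Replicate 1 had no summit within 200 bp of it, the nearest being 205 bp away. These 2 were the consensus peaks of the run.

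Other high regions were shared unevenly. The region at 9892110 to 9892459, 62 bp upstream of oct-1, had 34.4 in the pooled list, with 14.7 in replicate 1 and 18.99 in replicate 2, and the one in an oct-1 intron at 9890809 to 9891158 had 33.3, 19.1 and 19.8. The region at 9897064 to 9897413, in an intron of mom-4, a kinase gene of embryonic Wnt signalling, had 38.1 in the pooled list and 24.1 in replicate 1, with no match in replicate 2. Outside the common stretch, the region at 9934386 to 9934735, 271 bp upstream of the autophagy gene epg-8, had 39.7 in the pooled list, with 23.1 in replicate 1 and 9.75 in replicate 2. The one in an intron of strl-1, at 9930237 to 9930586, had 33.7 in the pooled list, with 13.6 in replicate 1 and 15.6 in replicate 2. The intronic regions of oct-1 at 9889588 to 9889937 and ztf-11 at 9908768 to 9909117 completed the 10 highest, at pooled signals of 28.2 and 28.6.

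In the pooled list the flanks held 2 regions of higher signal than any in the run, where the highest had 51.1. In replicate 1 the highest region of the run, at 29.4, was above the highest of the flanks, at 28.6. In replicate 2 the highest was 36.6 in the run and 39.7 in the flanks. The region 260 bp upstream of the translation initiation factor gene eif-3.C had 68.4 in the pooled list, with 28.6 in replicate 1 and 35.4 in replicate 2. The one 110 bp upstream of the histone gene his-68 had 64.8, 27.8 and 39.7. Both were consensus peaks and had a summit within 36 bp in each replicate. The next highest pooled region of the flanks had 23.7. In the pooled list the flanks thus held 2 high peaks among regions near the list median, and the run held many regions of intermediate signal.

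The 72 kb run overlapped 18 protein-coding genes, of which 17 had a pooled summit in the body or within 1 kb upstream, or 94.4%. Of the 23 genes in the flanks 16 did, or 69.6%, and over all 19973 protein-coding genes the share was 60.9%. In replicate 1 it was 15 of 18 in the run and 17 of 23 in the flanks, with 60.4% over all genes. In replicate 2 it was 17 of 18 and 17 of 23, with 63.4% over all genes. A gene in a denser stretch has more chances to hold a summit, so these shares are not independent of the density.

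The common stretch covered 6 genes, and each had a summit in all 3 lists. Of the 23 flank genes 14 did, and the share over all protein-coding genes was not computed. The stretch was cut from runs sought for a higher count, so 6 of 6 is in part built in. By body and 1 kb upstream, mom-4 had 7 summits in the pooled list, with 5 in replicate 1 and 7 in replicate 2, and ztf-11 had 5, 3 and 8. For oct-1 they were 5, 5 and 7, for nas-5 5, 4 and 5, for lsl-1 2, 2 and 5, and for the collagen gene col-64 1, 2 and 1. On the lower side, K10C3.5, nhr-49, a nuclear hormone receptor gene of fat metabolism, and the innexin gene inx-20 had 3 pooled summits each, with pooled maxima of 17.7 to 20.4, and nhr-69 had 1 at 16.1. In replicate 2 no region of these 4 genes exceeded 9.31. K10C3.4, just outside the run, had 2 pooled summits with a maximum of 16.3, and 2 in replicate 1 with a maximum of 12.8. In replicate 2 it had 5 with a maximum of 11.1, higher than any of those 4 genes inside the run.

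On the higher side, F52F12.5 had no summit in any list, and F52F12.8 had 1 in the pooled list at 12.4. F52F12.9 had 2 pooled summits with a maximum of 19.1, strl-1 had 4, and the adjoining Y106G6A.4 had 3, of which 2 were also counted for strl-1. epg-8 and dsbn-1, a dysbindin family gene, had 2 each, with maxima of 39.7 and 20.6. mekk-3, which spans the end of the run, had 1, at 15.02.

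Placement relative to genes was not used in choosing the locus. In the pooled list, 26 of the 56 summits of the run were in introns, 12 in coding exons and 18 intergenic. A start of a protein-coding transcript lay within 500 bp for 33.9% of the summits of the run and 22.2% of those of the flanks, against 25.5% over the list. The share of length within 500 bp of a start was 31.5% in the run and 23.3% in the flanks, so the summits lay near starts about as often as the sequence did. In the common stretch 5 of 35 pooled summits were near a start, or 14.3%, and 18.3% of its length was. The pooled share near starts was thus lower in the common stretch than in the flanks.

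Sequence content was measured in the same zones. GC content was 34.3% in the run, 35.2% in the flanks and 35.4% over the nuclear genome. Words of 31 bases found more than once in the nuclear genome made up 1.15% of the run and 6.80% of the flanks, and 12.4% of the flank on the lower side. Their part in the lower density of that flank was not tested. AAGTT, the word known for Myt1 family factors, was found on either strand within 50 bp of 22 of the 56 pooled summits of the run, or 39.3%, of 12 of 36 in the flanks, or 33.3%, and of 38.4% over the pooled list. The share in the run was close to that of the list.

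The replicates matched each other's summits in the run only in part. Of 51 replicate 1 summits in the run, 21 had a replicate 2 summit within 200 bp, or 41.2% (exact 95% binomial interval 27.6% to 55.8%), and 29.3% of the length of the run lay that close to a replicate 2 summit. In the flanks 13 of 38 matched, or 34.2% (19.6% to 51.4%), where 13.4% of the length lay that close. Over the nuclear genome 24.5% matched, and 11.7% of the length lay that close. The share matched stood above the share of length by less in the run than in the flanks. Of the 56 pooled regions of the run, 21 had a match in both replicates, 22 in replicate 1 alone, 12 in replicate 2 alone and 1 in neither. Those matched in both were 37.5% of the run, against 12 of 36 in the flanks, or 33.3%, and 25.1% over the nuclear genome. The intervals cover the counting of regions only.

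unc-119 (WBGene00006843, chromosome III 10902641 to 10908935), the other gene named in the strain description, was set beside ztf-11. Within 20 kb, ztf-11 had 39 pooled regions with a median signal of 21.8, and unc-119 had 21 with a median of 17.3. In replicate 1 the counts were 33 at ztf-11 and 24 at unc-119, with medians of 14.9 and 10.03, and in replicate 2 they were 44 and 18, with medians of 13.1 and 9.49. ztf-11 was thus higher in count and in median signal in all 3 lists. Within 100 kb the pooled counts were close, at 92 for ztf-11 and 88 for unc-119, and the best run around unc-119 was 84 kb long at 1.73 times its flanks, with a median signal 0.916 times theirs. The best run there was 3 kb long with 5 regions in replicate 1 and 9 kb long with 8 regions in replicate 2. Their densities were 4.06 and 2.35 times those of their flanks, and their median signals 1.21 and 1.00 times. These runs too were sought for a higher count, so density ratios above 1 are built in. The runs of the replicates did not overlap, so the lists gave no common stretch.

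Over all protein-coding genes the median was 12 regions within 20 kb in each list, and 8 genes, ztf-11 included, had at least as many pooled regions as ztf-11. The same count was 42 genes in replicate 1 and 2 in replicate 2. By summits among the 1000 highest, the pooled list gave 1 gene, replicate 1 gave 16 and replicate 2 gave 3. These are counts of genes and not of separate loci, since neighbouring genes share regions. They are also not per kb, and a longer gene has a wider window. The locus most like ztf-11 by the count of high-ranking summits was F57A8.6 on chromosome V. It had 34 pooled regions and 6 summits among the 1000 highest, against 39 and 10 at ztf-11. There replicate 1 had 58 regions and replicate 2 had 0, whereas both replicates listed regions at ztf-11. The replicate 2 list was empty over 50.4 kb around F57A8.6, from 10048833 to 10099231, where replicate 1 listed 60 regions and the pooled list 37. The next loci, B0513.4, B0524.6, smc-3, a cohesin subunit gene, and Y111B2A.12, had 27 to 30 pooled regions and 4 high-ranking summits each. Their median pooled signals were 14.7 to 17.5, against 21.8 at ztf-11.

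**Figure D4:**
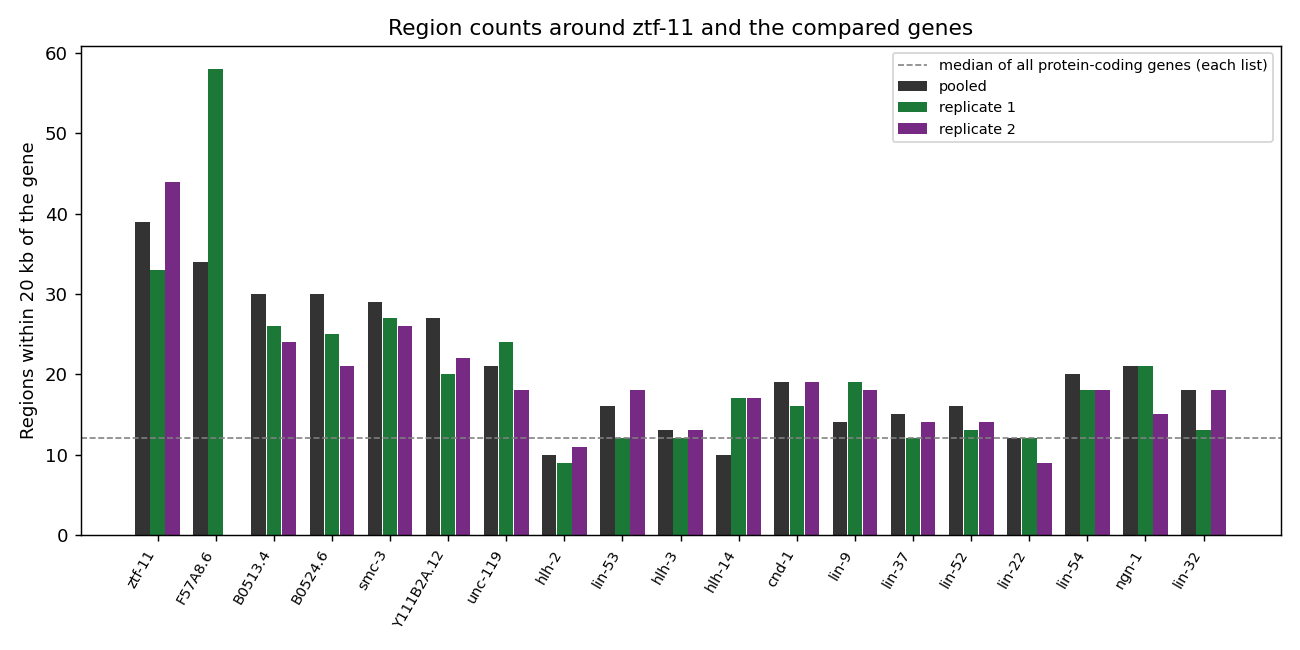
Number of listed regions within 20 kb of ztf-11, of the 5 loci most like it, of unc-119 and of 12 genes tied to ZTF-11 biology, in the pooled list and each replicate; the dashed line is the median of 12 over all protein-coding genes. ztf-11 stands high in all 3 lists, at 39, 33 and 44, while F57A8.6 is at 34, 58 and 0.

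Genes that act with ZTF-11 or in neurogenesis had counts nearer to the median of all genes. The list held the MuvB core genes lin-9, lin-37, lin-52, lin-53 and lin-54, the proneural bHLH genes hlh-2, hlh-3, hlh-14, lin-32, cnd-1 and ngn-1, and lin-22 of the Hes family. These 12 genes had 10 to 21 pooled regions within 20 kb, with a median of 15.5, against 12 over all protein-coding genes. Their median was 13 in replicate 1 and 16 in replicate 2. A pooled summit among the 1000 highest lay within 20 kb of 5 of the 12, against 31.7% of all protein-coding genes. The most such summits were 3 at lin-32 and 2 at lin-9, both named after their values were seen, where the 95th percentile over all genes was 2 and the 99th was 3. None of the 12 had a consensus peak within 20 kb, and 3.82% of all protein-coding genes had one.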

How the data were processed

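The ce11 lists of each replicate and of the pooled reads were used. Per the deposited README texts, the authors made these lists from the alignments and a control, to feed the irreproducible discovery rate procedure, which gave the consensus list. Aligner, caller, threshold and control strain are not given in the sources used here. Column 7, the signal, is the authors' deposited value per region, with no stated scaling between lists. The score (column 9), also deposited, has values below 0 in the pooled list and was not interpreted. Read depth was unknown.

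The reference was WBcel235 with Ensembl release 115. The 23 mitochondrial regions of replicate 1 were left out. Bins were 1 kb within 100 kb of the gene, and the run, of at least 3 bins, maximised the Poisson likelihood ratio of counts. The run by signal, of at least 5 regions, minimised squared error of log2 signal. High ranks kept 1 summit per 200 bp. Run finders were tested only on simulated data with a planted run. That cannot show how often a run is found where none exists. Python 3.11.15, numpy 2.4.6, pandas 2.3.3, scipy 1.17.1 and matplotlib 3.10.9 were used.

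Named genes were ztf-11, genes overlapping the run or within 5 kb of it, the 10 highest pooled regions, unc-119, the 5 genes with the most high-ranking pooled summits within 20 kb, and members of the ZTF-11 biology list with a consensus peak within 20 kb, of which there were none. The members, lists and rules were chosen with earlier results of these data known. The common 39 kb, the division of the run by it and the flank peaks, replicate 2 intron and empty stretch at F57A8.6 were chosen after values were seen. No test was made, since the locus was chosen on these values. No sequence of the locus is printed.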

Additional observations from a re-analysis of the deposited data

How the results depend on the processing

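Of 49 alternative values, 29 stayed within the limit set for them. This was the spread between replicates, 1.5 times for counts, or the exact binomial interval for the share matched. The spread was the standard deviation of the 2 replicate values, which are also the values with 1 replicate left out. The run of higher density was 39 to 82 kb with 1 replicate left out. It was 7 kb long, from 9908001 to 9915000, where the running mean had to stay at 2 times the mean of chromosome I, and 12.0 kb by signal, and 64 to 74 kb under the other bin widths, a filter on signal, 1 summit per 200 bp or a wider window, but 52 kb within 50 kb of the gene. Except for the run by signal, the alternative runs are sought for, or made from runs sought for, a higher count, so a density ratio above 1 is built in. The ratio was 2.73 with 2 kb bins, 2.56 within 200 kb, 2.29 within 50 kb, 3.07 by running mean, 2.64 by signal, 5.02 for regions at or above the list median, 2.61 over the common stretch (with the rest of the window as flank, chosen after the data were seen) and 2.29 to 2.48 with 1 replicate left out. The signal ratio was 1.58 for the run by signal and 1.08 to 1.47 with 1 replicate left out. The count of high-ranking summits was 24 among the 5000 highest, which follows from more regions. The share of replicate 1 matched was 23.5% within 100 bp and 66.7% within 500 bp, which follows from the distance. Windows with as many regions numbered 2 for regions at or above the median, 16 for 20 kb windows and 11 to 65 with 1 replicate left out. On ce10 the highest 72 kb window of chromosome I also held 56 regions. The other causes were not tested. The lists hold no read counts, so no limit set by depth was computed. No paired analysis was possible because the study has a single group.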
